A study of Mus musculus with 10 samples.

Results

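The enzymes that build cholesterol and fatty acids, with the regulators that set their transcription, form a group of 30 genes chosen by name, and all 30 were present among the 55418 named genes measured in 10 mouse mammary carcinoma lines. By role, 7 belong to the mevalonate pathway, 11 lead from squalene to cholesterol, 4 are regulators or carry sterol, and 8 make, elongate or desaturate fatty acids. All 30 passed the filter on low counts, which left 19936 genes for testing.

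The lines comprise 3 lung metastasis lines (5, 3 and 7), 3 lines of circulating tumour cells (CTC 1, 3 and 6), 3 fat pad tumour lines (primary 5, 7 and 8) and the parental line, with 1 RNA-seq library each and numbers as in the titles. The parental 4T1-hHER2 line is labelled with the BALB/cfC3H strain and mammary gland, and carries a human HER2 and luciferase construct delivered by lentivirus, so every derived line descends from cells with that insert. The derived lines were grown out of NOD-SCID-GAMMA mice, which lack T, B and NK cells but keep myeloid cells, and the labels trace all of them to circulating tumour cells of earlier tumour-bearing mice. The primary lines thus also passed through the blood, and age, sex, time in culture and clonality are not given in the sources used here. The series compares these sites of origin to follow how metastatic lineages evolve. Libraries held 79869760 to 97722716 estimated counts, of which 19.7% to 22.8% fell on assembled transcripts tied to no gene. Reads of a named gene could lie among those, and their part in any low value was not tested.

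As background, sterol synthesis starts from acetyl-CoA, passes through mevalonate, farnesyl diphosphate and squalene, and ends in cholesterol. SREBP transcription factors, made from Srebf1 and Srebf2, are held in the endoplasmic reticulum by the INSIG proteins while sterol is plentiful. When sterol falls they travel to the Golgi, are cleaved and switch on the genes of the pathway, Insig1 among them. SREBP-1c favours fatty acid genes and SREBP-2 favours sterol genes, and many tumours draw on both for membrane growth.

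Promoters are shown for 3 genes, Hmgcs1 because it was the member that held the sterol element searched, and Insig1 and Hsd17b7 because their levels differed most between lines among the genes with 1 start in the RefSeq table, a choice made after their values were seen. Each is the 250 bases before the RefSeq start on GRCm38.p6, written 5′ to 3′ on the strand of the gene. Capitals mark the sterol element TCACNCCAC, the E-box CACGTG and the NF-Y box CCAAT, on either strand.
Hmgcs1, chr13:119690101-119690350, plus strand: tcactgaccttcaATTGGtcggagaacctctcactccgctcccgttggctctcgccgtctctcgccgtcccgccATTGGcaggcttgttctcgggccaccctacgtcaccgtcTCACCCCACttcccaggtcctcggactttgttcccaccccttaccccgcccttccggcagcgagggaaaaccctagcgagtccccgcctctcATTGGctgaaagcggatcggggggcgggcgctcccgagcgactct
Insig1, chr5:28071162-28071411, plus strand: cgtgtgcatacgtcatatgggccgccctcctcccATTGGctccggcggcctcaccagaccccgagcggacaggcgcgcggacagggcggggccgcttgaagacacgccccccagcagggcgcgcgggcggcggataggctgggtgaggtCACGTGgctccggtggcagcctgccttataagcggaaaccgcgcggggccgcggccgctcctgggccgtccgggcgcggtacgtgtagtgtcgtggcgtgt
Hsd17b7, chr1:169969206-169969455, minus strand: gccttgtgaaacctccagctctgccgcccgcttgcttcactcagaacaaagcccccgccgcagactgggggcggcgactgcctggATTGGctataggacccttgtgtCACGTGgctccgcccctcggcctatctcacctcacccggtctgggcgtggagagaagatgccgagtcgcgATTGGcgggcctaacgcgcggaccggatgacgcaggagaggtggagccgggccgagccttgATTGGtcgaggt
Of the members, 23 had promoters in the table and the other 7 were not analysed for motifs. The NF-Y box was present in 18 of these 23 members (78.3%), against 37.5% of 27025 genes. The E-box was present in 4 members (17.4%), namely Dhcr7, Hsd17b7, Insig1 and Sc5d, against 6.86% of genes. TCACNCCAC was present in 1 member (4.35%), against 1.22% of genes. The E-box and sterol element do not share letters with the NF-Y box in these 3 windows. A match describes letters and shows no binding.

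Across the derived lines, the genes varied mainly from line to line. Primary 7 had the highest level of 20 of the 30 genes and metastasis 5 of another 7, while CTC 6 had the lowest level of 13 and metastasis 7 of 6. Relative to its own mean over the 9 derived lines, 29 genes were above it in metastasis 5, 25 in metastasis 3 and 6 in metastasis 7. Above the mean were 12 genes in CTC 1, 16 in CTC 3 and 3 in CTC 6. In the primary lines, 4 were above it in primary 5, 29 in primary 7 and 9 in primary 8, and in the parental line 7. Lines of 1 group thus differed from each other. Because many of the genes moved together within a line, the counts of genes by direction given below are not counts of separate results. The median difference from a gene's own mean, on the log2 scale, was 0.63, 0.27 and -0.41 in metastasis 5, 3 and 7 and -0.23, 0.11 and -0.80 in CTC 1, 3 and 6. It was -0.28, 0.92 and -0.40 in primary 5, 7 and 8, and -0.44 in parental. Over all genes tested the same median stayed between -0.02 and 0.04 in each library.

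**Figure D1:**
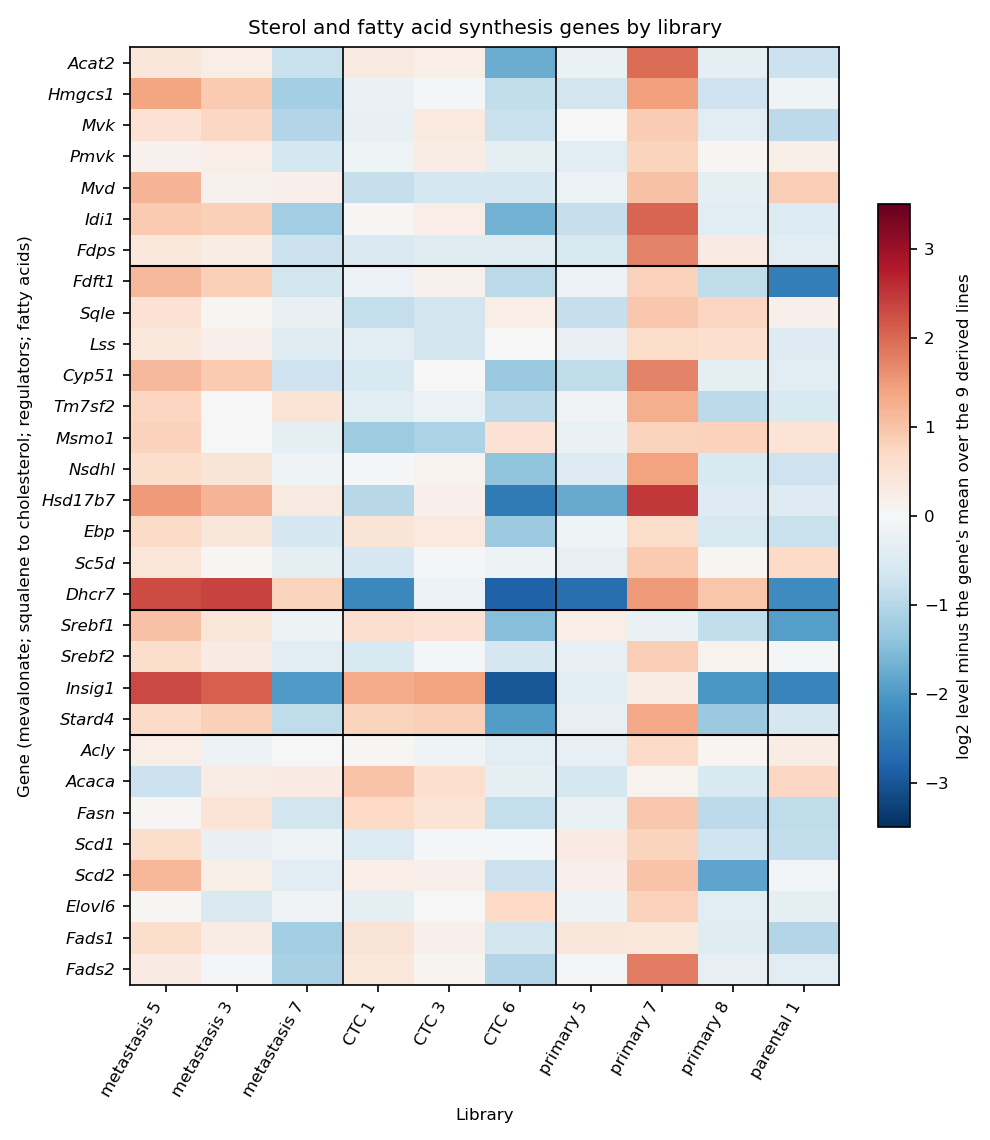
Rows are the 30 genes in order of role (mevalonate, squalene to cholesterol, regulators, fatty acids), columns the 10 libraries, and colour the log2 level minus the gene's mean over the 9 derived lines. Primary 7 and metastasis 5 are above the mean in 29 of 30 genes each, CTC 6 in 3, and lines of 1 group differ in colour.

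Among the 28 genes with a mean of at least 10 CPM (counts scaled to library size with TMM factors), the highest derived line was a median of 4.18 times the lowest. Of the 9333 genes of that level, 9315 had a lowest value above 0, and their median ratio was 2.57. Insig1 had a ratio of 38.5, Dhcr7 38.1 and Hsd17b7 31.3, and 1.69%, 1.71% and 2.09% of genes, in that order, had a larger one. Genes at 0 in a line were counted as not larger, so these percentages are underestimates. Acly was the most even, at 2.11. The 3 groups accounted for a median of 18.5% of the log2 variance of a gene among the 30, against 23.0% over all genes tested. Most of the spread thus lay within groups, for these genes as for genes in general. With 3 lines a group, shares of this size also arise where groups do not differ, so they show nothing particular to the 30. Because these are bulk libraries, fewer cells with a transcript and less of it per cell cannot be told apart.

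Compared per kilobase of exon, Scd2 was the most abundant, at a mean of 157 CPM per kilobase over the derived lines. Insig1 (65.1), Acly (63.4) and Fasn (61.2 CPM per kilobase) followed, in an order that differed by line: Insig1 exceeded Acly per kilobase in metastasis 5 and 3 and CTC 1 and 3, and Acly exceeded Insig1 in the other 5 derived lines. Next stood Fads2 (25.8), Sqle (25.3), Fads1 (24.4), Fdps (23.7), Srebf1 (21.99), Msmo1 (21.9) and Srebf2 (21.0), which lie close together given their spread between lines. At the low end were Dhcr7 (2.99), Tm7sf2 (0.234) and Acaca (0.219 CPM per kilobase).

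Insig1, the membrane protein that retains the SREBP escort in the endoplasmic reticulum and is itself an SREBP target, had, with Dhcr7, among the widest spreads of the 30. It was at 528, 457 and 27.3 CPM in metastasis 5, 3 and 7, 263, 284 and 13.7 CPM in CTC 1, 3 and 6, 83.1, 129 and 26.3 CPM in primary 5, 7 and 8, and 21.6 CPM in parental. Metastasis 5 and 3 and CTC 1 and 3 were high, metastasis 7, CTC 6, primary 8 and the parental line were low, and the groups overlapped. Pdgfra, of the fibroblast list, and Mertk, of the blood cell list, were highest in the same 4 lines, with values given beside the marker lists. Other markers of those lists did not all share this order, and primary 7 was low for both Pdgfra and Mertk. Col1a1, Col1a2 and Col3a1 of the first list and Ptprc, Csf1r, Adgre1 and Lyz2 of the second were scarce or absent throughout. The part of these transcripts in the Insig1 levels was not tested. Stard4, which carries sterol between membranes, was at 48.2, 53.9 and 16.4 CPM in metastasis 5, 3 and 7, 52.01, 54.6 and 7.84 CPM in CTC 1, 3 and 6, 24.9, 76.9 and 12.5 CPM in primary 5, 7 and 8, and 20.4 CPM in parental. It had the same 3 low derived lines, but its highest level was in primary 7.

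Srebf1, the gene of SREBP-1, was at 223, 148 and 97.4 CPM in metastasis 5, 3 and 7, 166, 156 and 39.1 CPM in CTC 1, 3 and 6, 129, 94.7 and 61.1 CPM in primary 5, 7 and 8, and 29.3 CPM in parental. All 9 derived lines lay above the parental line, and metastasis 5 was highest. Srebf2, the gene of SREBP-2, was more even, at 217, 172 and 108 CPM in metastasis 5, 3 and 7, 98.7, 139 and 94.4 CPM in CTC 1, 3 and 6, 116, 258 and 154 CPM in primary 5, 7 and 8, and 138 CPM in parental. Primary 7 was highest and CTC 6 lowest, and the parental line fell within the derived range. The 2 genes thus did not order the lines alike, and the Srebf1 level over the Srebf2 level, per kilobase of exon, was 1.31, 1.10 and 1.153 in metastasis 5, 3 and 7, 2.15, 1.44 and 0.528 in CTC 1, 3 and 6, 1.42, 0.468 and 0.506 in primary 5, 7 and 8, and 0.271 in parental. Transcript Srebf1-201 took 87.4% to 97.2% of the Srebf1 count and Insig1-201 96.1% to 99.4% of the Insig1 count, so these spreads were not between transcripts of the gene.

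**Figure D2:**
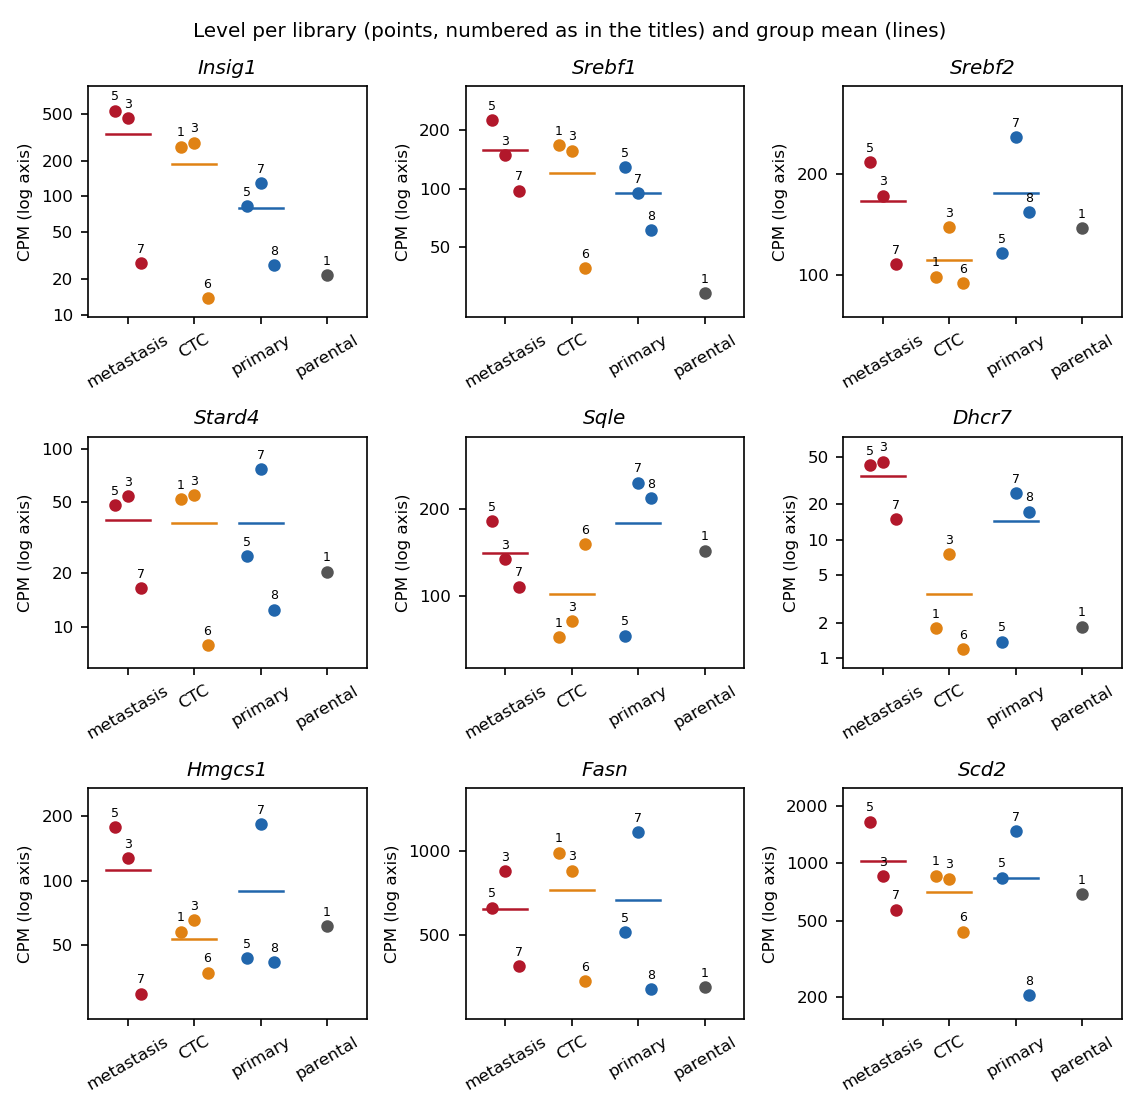
Level of 9 genes in CPM on log axes, with 1 point per library numbered as in the title and a line at the mean of each group of 3. Insig1 spans 13.7 to 528 CPM over the derived lines, with a line of each derived group near the parental 21.6 CPM.

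The mevalonate genes were led by primary 7 in 6 of 7 cases. Hmgcs1, which makes HMG-CoA, was at 178, 127 and 29.6 CPM in metastasis 5, 3 and 7, 57.7, 65.3 and 37.2 CPM in CTC 1, 3 and 6, 43.5, 183 and 41.5 CPM in primary 5, 7 and 8, and 61.2 CPM in parental. Metastasis 5 and primary 7 were nearly equal, and metastasis 7 was the lowest. Idi1, the isomerase of the isoprenoid units, was at 63.1, 59.6 and 14.3 CPM in metastasis 5, 3 and 7, 34.1, 39.3 and 10.6 CPM in CTC 1, 3 and 6, 19.00, 136 and 25.2 CPM in primary 5, 7 and 8, and 23.7 CPM in parental. Acat2, the cytosolic thiolase of the first step, was at 49.5, 44.4 and 22.02 CPM in metastasis 5, 3 and 7, 46.8, 44.8 and 11.3 CPM in CTC 1, 3 and 6, 32.1, 148 and 29.8 CPM in primary 5, 7 and 8, and 22.7 CPM in parental. Both had primary 7 far above all others and CTC 6 at the bottom. Transcript Acat2-201 took 39.5% to 98.9% of the Acat2 count, so the Acat2 level is uncertain. Fdps, farnesyl diphosphate synthase, was at 109.5, 103 and 50.8 CPM in metastasis 5, 3 and 7, 60.3, 63.7 and 64.2 CPM in CTC 1, 3 and 6, 58.1, 286 and 104 CPM in primary 5, 7 and 8, and 66.1 CPM in parental. Its CTC lines differed little from each other, and primary 7 stood far above every other line. Exons of Fdps share 26.7% of their bases with Gm43738 on the same strand, those of Hmgcs1 12.1% with Gm48342 and those of Idi1 9.22% with Gm48574 on the opposite strand, so these 3 counts are uncertain.

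The other 3 genes of that stretch had narrower ranges. Mvk, mevalonate kinase, ranged over 8.00 to 29.9 CPM in the derived lines, and Pmvk, the next kinase, over 13.1 to 34.3 CPM. Mvd, the decarboxylase that ends the mevalonate steps, is given in every library although its range does not call for it, a choice made after its values were seen. It was at 34.7, 16.7 and 17.3 CPM in metastasis 5, 3 and 7, 8.57, 9.88 and 10.03 CPM in CTC 1, 3 and 6, 13.1, 30.8 and 11.99 CPM in primary 5, 7 and 8, and 27.7 CPM in parental. Each CTC line was below each metastasis and each primary line for Mvd.

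Along the steps from squalene to cholesterol, Dhcr7 and Hsd17b7 varied most. Dhcr7, the reductase that gives cholesterol from its last precursor in one branch, was at 42.7, 45.3 and 14.9 CPM in metastasis 5, 3 and 7, 1.80, 7.57 and 1.19 CPM in CTC 1, 3 and 6, 1.38, 24.7 and 17.2 CPM in primary 5, 7 and 8, and 1.86 CPM in parental. The metastasis lines were above all CTC lines, primary lines fell on both sides, and the parental line was close to CTC 1. The Dhcr7 count was spread over 13 transcripts, and the one with the most reads in all took 0% to 81.5% of it and was at 0 in 2 libraries, so this level is uncertain. Hsd17b7, the ketoreductase of sterol demethylation, was at 28.5, 23.1 and 12.5 CPM in metastasis 5, 3 and 7, 5.20, 11.5 and 1.80 CPM in CTC 1, 3 and 6, 2.97, 56.3 and 7.46 CPM in primary 5, 7 and 8, and 7.44 CPM in parental. Primary 7 was highest and CTC 6 lowest, and the other primary lines were below every metastasis line.

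Cyp51, the lanosterol demethylase, was at 111, 95.1 and 30.5 CPM in metastasis 5, 3 and 7, 35.1, 50.3 and 20.3 CPM in CTC 1, 3 and 6, 27.2, 168 and 40.1 CPM in primary 5, 7 and 8, and 38.1 CPM in parental. Nsdhl, a dehydrogenase of the same demethylation complex, was at 27.5, 24.3 and 16.02 CPM in metastasis 5, 3 and 7, 17.3, 19.6 and 6.68 CPM in CTC 1, 3 and 6, 13.05, 47.7 and 12.2 CPM in primary 5, 7 and 8, and 10.8 CPM in parental. In both genes primary 7 led, metastasis 5 and 3 followed, and CTC 6 was lowest. Sqle, squalene epoxidase, a rate-limiting step, was at 181, 134 and 108 CPM in metastasis 5, 3 and 7, 72.2, 81.9 and 151 CPM in CTC 1, 3 and 6, 73.2, 246 and 217 CPM in primary 5, 7 and 8, and 144 CPM in parental. Here CTC 6 was the highest CTC line, and primary 8 was second to primary 7. Msmo1, the methylsterol oxidase, had the same feature, at 49.8 and 55.5 CPM in CTC 1 and 3 and 169 CPM in CTC 6, a gene outside the rule for full values and chosen after its values were seen.

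Fdft1, squalene synthase, was below every derived line in the parental library, at 9.46 CPM, against 26.2 to 110.0 CPM in the derived lines. Its exons share 18.3% of their bases with Ctsb on the opposite strand, so its count is uncertain. Lss, lanosterol synthase, ranged over 36.5 to 87.5 CPM in the derived lines, Ebp, a sterol isomerase, over 9.79 to 37.6 CPM, and Sc5d, a sterol desaturase, over 33.5 to 94.4 CPM. Tm7sf2, a sterol reductase, was scarce, at 0.467 to 2.25 CPM, and shares 12.1% of its exon bases with Vps51. Ebp had CTC 6 as its lowest line, and Sc5d had only primary 7 above the parental 80.8 CPM.

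The contrast between Insig1 and Sqle, both known sterol-regulated genes, was set out as a ratio within each library, chosen after the values were seen. Per kilobase of exon, the Insig1 level over the Sqle level was 5.24, 6.11 and 0.454 in metastasis 5, 3 and 7. It was 6.52, 6.21 and 0.163 in CTC 1, 3 and 6. In primary 5, 7 and 8 it was 2.04, 0.941 and 0.217, and in the parental line 0.269. Each derived group held at least 1 line above 1 and at least 1 below it.

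**Figure D3:**
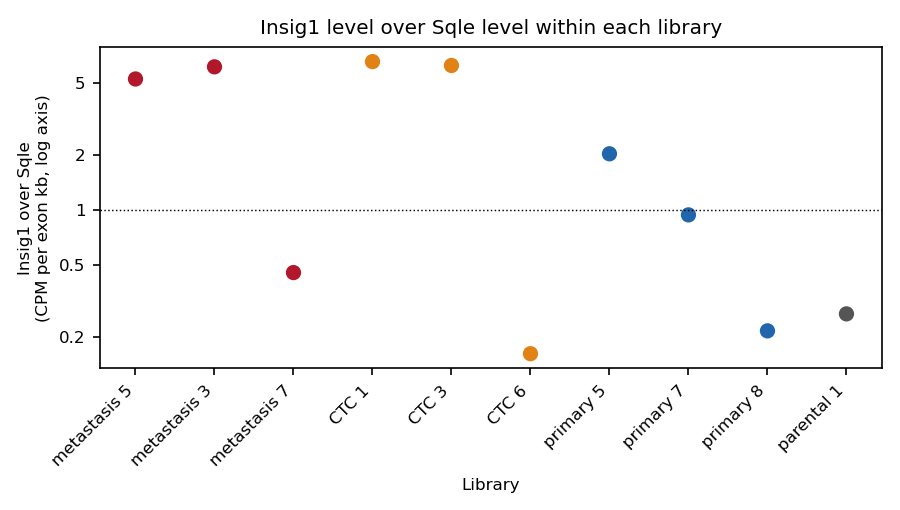
Insig1 level over Sqle level, each in CPM per kilobase of exon, for the 10 libraries on a log axis with a dotted line at 1. Metastasis 5 and 3 and CTC 1 and 3 lie between 5.24 and 6.52, and metastasis 7, CTC 6, primary 8 and parental between 0.163 and 0.454.

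For the 8 fatty acid genes the highest derived line was 2.11 to 8.10 times the lowest. Fasn, fatty acid synthase, was at 625, 846 and 386 CPM in metastasis 5, 3 and 7, 982, 849.6 and 342 CPM in CTC 1, 3 and 6, 513, 1162 and 320.4 CPM in primary 5, 7 and 8, and 325 CPM in parental. Primary 7 and CTC 1 were the highest, and primary 8, CTC 6 and parental were close together at the low end. Scd2, the more abundant of the stearoyl-CoA desaturases here, was at 1652, 854 and 573 CPM in metastasis 5, 3 and 7, 859.9, 831 and 439.9 CPM in CTC 1, 3 and 6, 841, 1476 and 204 CPM in primary 5, 7 and 8, and 689 CPM in parental. Metastasis 5 and primary 7 stood above the rest and primary 8 below them. Transcript Scd2-201 took 53.2% to 90.1% of the Scd2 count, the remainder falling on a transcript annotated for nonsense-mediated decay.

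Fads1, which desaturates polyunsaturated chains, was at 169, 130.4 and 47.2 CPM in metastasis 5, 3 and 7, 150.2, 124 and 70.6 CPM in CTC 1, 3 and 6, 143, 142 and 81.3 CPM in primary 5, 7 and 8, and 53.8 CPM in parental. Fads2, the desaturase of the first polyunsaturated step, was at 86.2, 68.7 and 32.4 CPM in metastasis 5, 3 and 7, 91.1, 75.8 and 35.3 CPM in CTC 1, 3 and 6, 69.8, 248 and 58.2 CPM in primary 5, 7 and 8, and 55.6 CPM in parental. Metastasis 7 was lowest for both, and primary 7 led for Fads2 alone. Of the other 4, Acly, which makes cytosolic acetyl-CoA, ranged over 248 to 524 CPM in the derived lines, Scd1 over 52.7 to 148 CPM and Elovl6, an elongase, over 45.9 to 114 CPM. Acaca, acetyl-CoA carboxylase, was at only 2.03 to 6.97 CPM, and Acaca-201 took 27.5% to 91.3% of its count, so its level as a gene is uncertain. The share of Acly-201 in the Acly count also varied, from 28.9% to 69.6%, which leaves the Acly level uncertain too. The Scd2 level over the Scd1 level per kilobase was 6.64 to 11.2 in metastasis lines, 4.82 to 12.4 in CTC lines, 3.47 to 8.94 in primary lines and 13.2 in parental.

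Lung metastasis lines were compared with fat pad lines to ask whether the genes differ by site. The 30 genes gave no common direction: 12 were higher and 18 lower in metastasis lines, against 50.3% higher and 49.5% lower over all genes tested. The median log2 change was -0.08, against 0.01 over all genes. With edgeR's quasi-likelihood test and Benjamini-Hochberg adjustment 0 of the 30 passed (0% of all genes), 0 had an unadjusted p under 0.05 (8.29% of all genes), and DESeq2 and limma-voom called 0 as well. None had groups that did not overlap, against 6.38% of all genes higher and 7.27% lower. Since nothing shows that the lines came from separate animals, p-values here measure only the spread between these lines.

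Insig1 averaged 337 ± 271 CPM in metastasis lines and 79.5 ± 51.5 CPM in primary lines (SD, n = 3 each), a log2 change of 2.09 with a standard error (SE) of 1.19 (edgeR, adjusted p = 0.613). With the number in the title as a fixed block, this change was 0.22. That fit has 1 residual degree of freedom, and only numbers 5 and 7 occur in both groups. Under these the log2 difference of Insig1 was 2.67 and -2.24. For Srebf1 the means were 156 ± 63.3 CPM in metastasis and 94.8 ± 33.8 CPM in primary lines (log2 change 0.72, SE 0.54, edgeR adjusted p = 0.675). Dhcr7 averaged 34.3 ± 16.8 CPM in metastasis and 14.4 ± 11.9 CPM in primary lines (log2 change 1.25, SE 0.99, edgeR adjusted p = 0.69).
On the lower side were Fads2 (log2 change -1.003, SE 0.62), Fdps (-0.77, SE 0.54) and Acat2 (-0.85, SE 0.73), with edgeR adjusted p of 0.632, 0.657 and 0.712. These 3 rest on primary 7: without it Fads2 was at -0.03, Fdps at 0.12 and Acat2 at 0.32, and the median of the 30 was 0.58. Without metastasis 7 that median was 0.15.

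CTC lines were set against primary lines for the same question. Values were lower in CTC lines for 24 of the 30 genes, including all 7 mevalonate genes and all 11 from squalene to cholesterol, against 50.6% of all genes, and 6 were higher, against 49.1%. The median log2 change was -0.63, against -0.01 over all genes. The 2 comparisons with primary share the primary lines. Without primary 7 the median was 0.09, so the direction rests on that 1 line.
With edgeR's quasi-likelihood test and Benjamini-Hochberg adjustment 0 genes passed (0% of all genes), and DESeq2 and limma-voom called 0 of the 30. At an unadjusted p under 0.05 stood 1 of 30 genes, Fdps, against 4.06% of all genes, and 0 when the number was a random block. DESeq2 put 3 there. This count was 7 without primary 5, 4 without CTC 6, 2 without primary 8, and 0 without primary 7, CTC 1 or metastasis 3. Fdps averaged 62.7 ± 2.09 CPM in CTC lines and 149 ± 120 CPM in primary lines (SD, n = 3 each), a log2 change of -1.25 (SE 0.54, edgeR adjusted p = 0.994), and -0.36 without primary 7. Mvd was lower in every CTC line than in every primary line (9.50 ± 0.803 and 18.6 ± 10.6 CPM, log2 change -0.97, SE 0.45, edgeR adjusted p = 0.994), the 1 gene of the 30 without overlap, against 4.02% of all genes. No gene of the 30 lay wholly higher, against 3.13% of all genes. Without primary 7 the change of Mvd was -0.40. Lss had -0.69 (SE 0.33). On the higher side were Acaca (0.84, SE 0.48), Insig1 (1.23, SE 1.16) and Srebf1 (0.34, SE 0.54), all with edgeR adjusted p of 0.994. Insig1 was at -0.45 with the number as a fixed block, although CTC and primary lines share no number.

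Metastasis lines against CTC lines gave the most uniform direction. Values were higher in metastasis lines for 26 of the 30 genes, against 49.8% of all genes, and these were all 7 mevalonate genes, all 11 from squalene to cholesterol, all 4 regulators and 4 of the 8 fatty acid genes. The other 4 were lower, against 49.6% of all genes. The median log2 change was 0.44, with 0.00 over all genes, and 0.48, 0.64, 0.48 and -0.05 in those 4 roles in turn. Over the 30 it was 0.23 without metastasis 5 and 0.69 without metastasis 7. The direction was not shared by every line. By the median log2 difference from a gene's own mean, metastasis 7 (-0.41) lay below CTC 1 (-0.23) and CTC 3 (0.11).
With edgeR's quasi-likelihood test and Benjamini-Hochberg adjustment 0 of the 30 passed (0.00502% of all genes did, 1 gene), and DESeq2 and limma-voom called 0. At an unadjusted p under 0.05 stood 2 of 30, Dhcr7 and Mvd, against 3.29% of all genes, and 1 with the number as a random block. This count was 4 without metastasis 7 and 1 without metastasis 5 or CTC 1. Dhcr7 averaged 34.3 ± 16.8 CPM in metastasis and 3.52 ± 3.52 CPM in CTC lines (SD, n = 3 each), a log2 change of 3.28 (SE 1.06, edgeR adjusted p = 1). Mvd averaged 22.9 ± 10.2 CPM in metastasis and 9.50 ± 0.803 CPM in CTC lines (log2 change 1.27, SE 0.45, edgeR adjusted p = 1). Hsd17b7 averaged 21.4 ± 8.11 CPM in metastasis and 6.18 ± 4.94 CPM in CTC lines (log2 change 1.79, SE 1.03, edgeR adjusted p = 1). Groups did not overlap for 4 of 30 genes, these 3 and Tm7sf2, all higher in metastasis, against 4.43% of all genes. None lay wholly lower, against 3.85%. Tm7sf2 rests on few reads, at 0.93 CPM in metastasis 3 and 0.79 CPM in CTC 3. Much of its count fell on a transcript annotated as a retained intron, and the Dhcr7 level is uncertain. Lower in metastasis were Acaca (-0.52, SE 0.48), Elovl6 (-0.36, SE 0.39) and Fasn (-0.23, SE 0.54), and Fasn was at 0.02 without metastasis 7 and 0.06 without CTC 1.

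**Figure D4:**
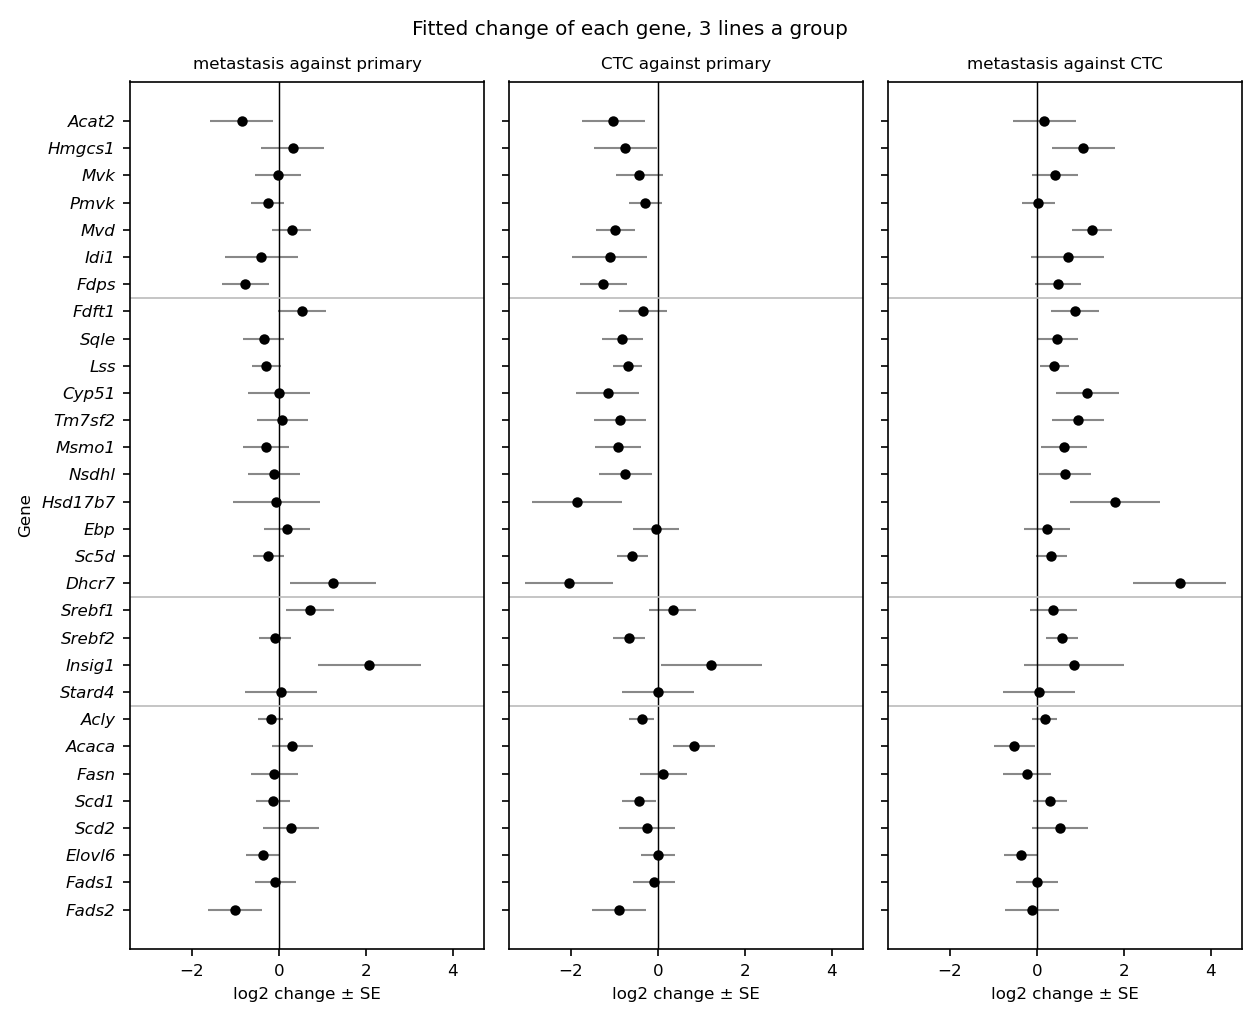
Fitted log2 change of each of the 30 genes with its standard error, for the 3 comparisons among groups of 3 lines, with 0 of 30 past adjustment in each. In metastasis against CTC 26 points lie right of 0, and Dhcr7 lies farthest, at 3.28.

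Taking metastasis, CTC and primary lines at once, the test for any difference found 0 of the 30 after adjustment (0% of all genes, edgeR, and 0 of the 30 by DESeq2 and limma-voom). Dhcr7 was the 1 gene at an unadjusted p under 0.05, against 5.20% of all genes (edgeR adjusted p = 0.907). The count was 4 without primary 5, 3 without primary 7, and 0 without metastasis 5, metastasis 3 or CTC 1, and DESeq2 put 2 there.

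Derived lines were compared with the parental line, which has 1 library and is assumed to vary like the others. Values were higher in the derived lines for 23 genes, against 53.9% of all genes, and lower for 7, against 46.1%, with a median log2 change of 0.66 where all genes had 0.10. Without primary 7 the median of the 30 was 0.32. With edgeR's quasi-likelihood test and Benjamini-Hochberg adjustment 0 of 30 passed (0.0201% of all genes did, 4 genes), limma-voom called 0 of them and DESeq2 called 1, Fdft1, with an adjusted p of 0.0303. At an unadjusted p under 0.05 stood Fdft1 and Srebf1, 2 of 30, against 10.3% of all genes, and 0 with the number as a random block. By DESeq2 it was 4. Fdft1 had a log2 change of 2.55 (SE 0.89, edgeR adjusted p = 0.472) and Srebf1 of 2.05 (SE 0.84, edgeR adjusted p = 0.482). In the case of Dhcr7 it was 2.69 (SE 1.59, edgeR adjusted p = 0.524). Each derived line was above parental for 3 of 30 genes, Fdft1, Srebf1 and Scd1, against 14.1% of all genes, and each was below it for 0, against 15.4%. Lower in the derived lines were Mvd (-0.80, SE 0.53), Sc5d (-0.64, SE 0.43) and Acaca (-0.66, SE 0.58), with edgeR adjusted p of 0.55, 0.55 and 0.629.

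Lines that carry the same number can be set side by side, as values of 1 line each with no test, although the meaning of the number is not stated in the labels. Metastasis 5 was above primary 5 for 29 of 30 genes, by a median of 0.89 on the log2 scale. Metastasis 7 was below primary 7 for 28 of 30, with a median of -1.38. The same contrast thus pointed opposite ways under the 2 numbers. Insig1 was at 528 CPM in metastasis 5 and 83.1 CPM in primary 5, and at 27.3 CPM in metastasis 7 and 129 CPM in primary 7. Dhcr7 was at 42.7 CPM in metastasis 5 and 1.38 CPM in primary 5, and at 14.9 CPM in metastasis 7 and 24.7 CPM in primary 7. Metastasis 3 was above CTC 3 for 20 genes and below it for 10, with a median of 0.27. All 11 genes from squalene to cholesterol were higher in metastasis 3 than in CTC 3 (median 0.71), and 6 of 8 fatty acid genes were lower (median -0.08).

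**Figure D5:**
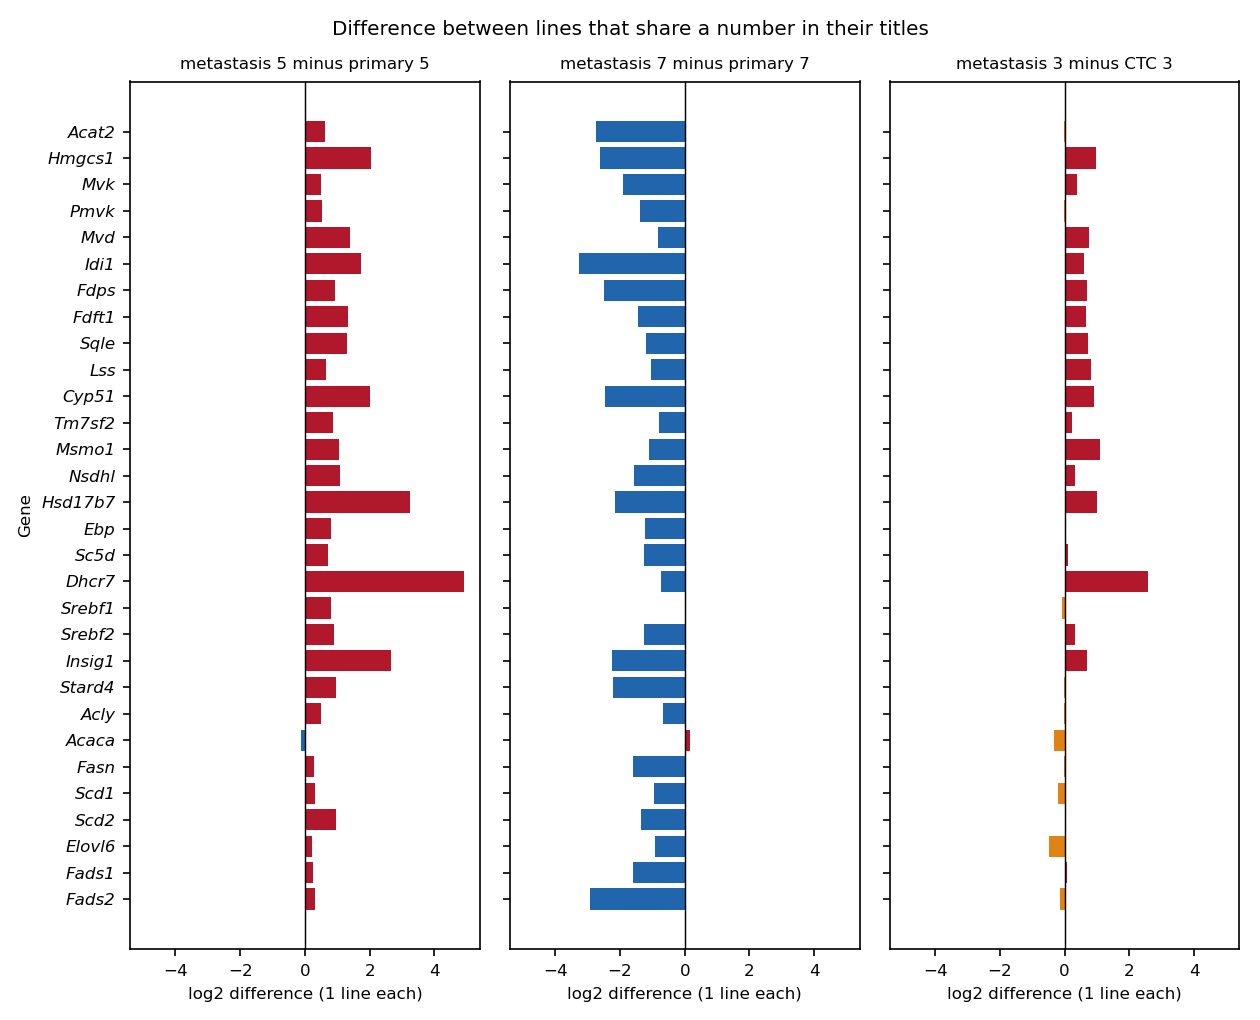
Difference in log2 level of each gene between lines that share a number, 1 line each (bars right of 0 are higher in the metastasis line). Bars point right for 29 of 30 genes in metastasis 5 minus primary 5, left for 28 of 30 in metastasis 7 minus primary 7, and right for 20 of 30 in metastasis 3 minus CTC 3.

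Other genes of sterol and fatty acid handling were counted from 4 lists, with 0 past adjustment in any comparison by edgeR's quasi-likelihood test. Of the list for sterol uptake, storage and control, 17 of 18 genes were tested. Among these, 10 were higher in metastasis than in primary lines (median log2 change 0.19), 9 in CTC than in primary lines (0.02), 10 in metastasis than in CTC lines (0.18) and 8 in derived than in parental lines (-0.01). The genes named by the rule on this list were Insig2, the relative of Insig1, Mbtps2, a protease that cleaves SREBP, and Npc2, which binds cholesterol in the lysosome. Insig2 had a log2 change of 1.43 (SE 0.44) in metastasis against primary and 1.41 (SE 0.44) in CTC against primary, with edgeR adjusted p of 0.594 and 0.994. Mbtps2 had 1.16 (SE 0.40) in metastasis against primary and 0.75 (SE 0.39) in metastasis against CTC, with edgeR adjusted p of 0.594 and 1. Npc2 had 1.02 (SE 0.48, edgeR adjusted p = 0.994) in CTC against primary.
For sterol efflux under LXR, the receptor that answers to excess sterol, 8 of 10 genes were tested. In metastasis against primary 5 were higher (median 0.26), in CTC against primary 4 (0.13), in metastasis against CTC 7 (0.34) and in derived against parental 7 (0.75). Abca1, a cholesterol exporter, was scarce, at 0.259 to 0.911 CPM in metastasis lines, at most 0.0533 CPM in CTC lines and at most 2.26 CPM in primary lines.
Of other fatty acid supply genes, 17 of 19 were tested, and 11, 6, 12 and 11 were higher in those 4 comparisons in turn (medians 0.19, -0.22, 0.20 and 0.30). Fabp5, a fatty acid carrier, was at 16.4 ± 8.86 CPM in metastasis, 31.7 ± 18.6 CPM in CTC and 94.6 ± 61.2 CPM in primary lines (SD, n = 3 each), a log2 change of -2.53 (SE 0.71) in metastasis against primary with an edgeR adjusted p of 0.594. For oxidation and storage 14 of 15 genes were tested, and 7, 9, 7 and 10 were higher (medians 0.03, 0.09, 0.06 and 0.59). Plin2, a lipid droplet coat protein, was at 208 ± 53.8 CPM in metastasis and 454 ± 230 CPM in primary lines (log2 change -1.13, SE 0.37, edgeR adjusted p = 0.594). Hadha, of beta-oxidation, had 1.56 (SE 0.37, edgeR adjusted p = 0.441) in derived against parental.

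Markers of cells that also make lipid were low, apart from Abca3 of the alveolar type 2 list. The 8 adipocyte markers summed to 0.131 to 4.40 CPM in metastasis lines, 0.147 to 0.511 CPM in CTC lines, 0.171 to 0.948 CPM in primary lines and 0.255 CPM in parental, with Cidec, Lep and Cfd at 0 and Plin4 highest at 4.31 CPM. Of the alveolar type 2 list, Sftpc, Sftpa1, Sftpd and Lamp3 were at 0 in all libraries, and Abca3 made up nearly all of its sum of 74.4 to 110.4 CPM in metastasis, 68.4 to 115 CPM in CTC, 62.2 to 129 CPM in primary and 68.8 CPM in parental libraries. The hepatocyte markers Alb and Ttr were at 0 throughout. The 5 fibroblast markers summed to 14.8 to 284 CPM in metastasis, 10.96 to 142 CPM in CTC, 5.07 to 61.95 CPM in primary and 5.10 CPM in parental libraries, with Pdgfra highest. Pdgfra was at 269, 126 and 11.3 CPM in metastasis 5, 3 and 7, 72.3, 141 and 10.1 CPM in CTC 1, 3 and 6, 58.1, 4.84 and 4.06 CPM in primary 5, 7 and 8 and 4.45 CPM in parental. Markers of blood cells, Mertk highest, summed to 2.495 to 20.01 CPM in metastasis, 8.10 to 17.2 CPM in CTC, 2.86 to 10.01 CPM in primary and 0.737 CPM in parental libraries. Mertk was at 11.2, 19.3 and 1.21 CPM in metastasis 5, 3 and 7, 8.72, 16.3 and 0.93 CPM in CTC 1, 3 and 6, 4.48, 0.842 and 0.536 CPM in primary 5, 7 and 8 and 0 CPM in parental. Both were highest in metastasis 5 and 3 and CTC 1 and 3, the lines where Insig1 was highest. They were low in metastasis 7, CTC 6 and primary 8, where Insig1 was low. Primary 7 departed from this, with both low at an Insig1 level of 129 CPM, above the 83.1 CPM of primary 5. Other markers of the 2 lists did not all follow. Col1a2 was highest in metastasis 7 (1.2 CPM) and Cd68 in CTC 6 (7.14 CPM), while Dcn was highest in metastasis 5 (12.4 CPM). The remaining markers of the 2 lists were scarce. Col1a1 reached at most 2.315 CPM (primary 7) and Col3a1 0.3253 CPM (metastasis 5). Ptprc reached at most 0.2323 CPM (CTC 3), Csf1r 0.6446 CPM (primary 7) and Lyz2 0.2602 CPM (metastasis 5), and Adgre1 was at 0 in all libraries. Cdh1, an epithelial marker, was at 88.7, 77.3 and 391 CPM in metastasis 5, 3 and 7, 94.2, 77.7 and 150 CPM in CTC 1, 3 and 6, 107, 627 and 419 CPM in primary 5, 7 and 8 and 366 CPM in parental. It was lowest in those 4 lines of high Insig1, as were Epcam and Krt14 of the same list. Krt18 was not, at 1157 and 1322 CPM in metastasis 5 and 3 and 1462 and 1395 CPM in CTC 1 and 3. It was at 303 CPM in metastasis 7 and 588 CPM in CTC 6. Krt8 and Erbb2 were not lowest in those lines either. Whether these transcripts came from other cells or from the carcinoma cells was not tested, nor was their part in the results above. The 6 mammary carcinoma markers, Krt18 the highest, summed to 1109 to 2704 CPM in metastasis, 1184 to 2433 CPM in CTC, 1899 to 2285 CPM in primary and 916 CPM in parental libraries.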

How the data were processed

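RNA was sequenced as paired ends on an Illumina HiSeq from 10 lines, with the molecule labelled polyA RNA and a TruSeq total RNA kit named, per the labels. Per the submitters' processing notes, the tools were StringTie 2.0.3, HISAT2 2.1.0 and DESeq2 1.26.0, with the GRCm38 build. The values deposited by the authors are estimated counts per gene and per transcript, unscaled and already whole. StringTie divides reads among overlapping transcripts, and strand use in counting is not given here, so genes with shared exons are uncertain.

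Named genes were tested in 1 fit of 4 groups over 10 libraries with edgeR 4.0.16 (R 4.3.3, TMM, filterByExpr, quasi-likelihood test, Benjamini-Hochberg adjustment at 0.05). The common biological coefficient of variation was 0.606. Each SE was obtained from the change and its F statistic. Exon lengths, positions and overlaps come from GENCODE M21 on GRCm38, and promoters from RefSeq. Log2 levels used a prior count of 2. The fit was tested on simulated counts first.

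The genes and lists were chosen with earlier results of these data known. Values in every library are given for the 4 regulators and, in each other role, for the 4 genes of widest range with a mean of at least 10 CPM plus the most abundant per kilobase. Statistics are given for the 3 genes of smallest p in each direction. Over the other lists together, the 2 genes of smallest p in each direction were to be named per comparison. Elovl7, Slc25a1, Ppargc1a and Acsl1 also met this and are named only.

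Numbers in the titles recur between groups (5 and 7 in metastasis and primary, 3 in metastasis and CTC). Deviations from the group means correlated at 0.319, 0.12 and 0.406 in the same-number pairs, with a median of -0.0493 over other pairs and a highest of 0.506 (metastasis 7 with CTC 6). These values do not decide whether the numbers pair lines, since CTC 6 with primary 8 (0.43) also exceeded every same-number pair. The labels do not state it either, so the main fit used no block, and blocks are alternatives. Others were scaling, filters, all table entries, DESeq2 1.42.0, limma-voom (limma 3.58.1), and leaving out each line.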

Additional observations from a re-analysis of the deposited data

How the results depend on the processing

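Of 844 alternative values, 777 stayed within set limits: the same direction and side of the threshold for single genes, within 1.5 times for counts, and within 0.586 for medians on the log2 scale. Another 61 moved, 5 single-gene changes reversed and 1 gained significance. For single genes, 462 of 468 log2 changes were the same. The causes were not tested.

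DESeq2 called more genes of the whole table: 175 in metastasis against primary, 66 in CTC against primary, 27 in metastasis against CTC, 126 for any difference and 671 in derived against parental. It called 1 of the 30 genes, Fdft1 in derived against parental (log2 change 2.54), and its counts of the 30 at an unadjusted p under 0.05 were 3 in CTC against primary, 2 for any difference and 4 in derived against parental. Genes called in metastasis against CTC were 0 without a filter, 0 with 1 CPM in every library, and 0 with all entries of the gene table. In derived against parental 0 were called with 1 CPM in every library, 42 with all entries and 24 by limma-voom. Counts of the 30 genes at an unadjusted p under 0.05 in CTC against primary were 2 with library size alone, 0 with all entries and 0 by limma-voom. For any difference they were 2 by upper quartile, 2 with library size alone, 2 with 1 CPM in every library and 0 with all entries.

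With the number as a random replicate block (correlation 0.484) limma-voom called 1 gene in metastasis against primary, 1 for any difference and 19 in derived against parental. Of the 30 genes, 0 in CTC against primary, 1 in metastasis against CTC and 0 in derived against parental then had an unadjusted p under 0.05. With a fixed replicate block (1 residual degree of freedom) 0 genes were called in metastasis against CTC, and 0 of the 30 had such a p in CTC against primary, metastasis against CTC or any difference. Insig1 in CTC against primary reversed to -0.45 there. The blocks changed no other call. CTC and primary lines share no number, and no fixed block was fitted for derived against parental.

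Leaving out each line in turn gave 0 to 1 genes called in metastasis against primary, 0 to 1 in metastasis against CTC and 0 to 1 for any difference. The 30 genes at an unadjusted p under 0.05 numbered 0 to 1 in metastasis against primary, 0 to 7 in CTC against primary (7 without primary 5), 1 to 4 in metastasis against CTC (4 without metastasis 7) and 0 to 4 for any difference (4 without primary 5). Their median log2 change ranged over -0.31 to 0.58 in metastasis against primary and -0.851 to 0.0908 in CTC against primary, the upper value in both without primary 7, and the sign of the first also changed without metastasis 7. It ranged over 0.235 to 0.694 in metastasis against CTC (lowest without metastasis 5, highest without metastasis 7) and 0.317 to 0.79 in derived against parental (lowest without primary 7, highest without primary 8). In metastasis against primary Fdps ranged over -1.15 to 0.12 and Acat2 over -1.21 to 0.32, and in metastasis against CTC Fasn over -0.563 to 0.0555, with 0.0219 without metastasis 7 and 0.0555 without CTC 1. Depth limits Tm7sf2 and Abca1, which rest on few reads.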
